A study of Mus musculus with 3 samples.

Results

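Ccl2, Ccl3, Ccl4, Ccl5, Ccl6, Ccl7, Ccl9 and Ccl22 are 8 mouse genes of the CC chemokine family. They were taken as every probe set annotated to 1 of these genes alone, which gave 10 of the 22690 probe sets on the array and 8 of the 12393 genes that could be named. Ccl6 and Ccl9 had 2 probe sets each and the other members had 1. Expression was read in the mouse line RAW264.7, macrophage-like cells that arose from a tumour induced by Abelson leukaemia virus, after 0, 2 and 12 h of lipopolysaccharide (LPS), a cell wall component of Gram-negative bacteria. Each time had 1 array, made from 5 µg of total RNA. No genotype, dose of LPS or untreated array at a later time was given in the sources used here, so the effect of LPS and that of the hours in culture cannot be told apart.

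CC chemokines are small secreted proteins named for a pair of adjacent cysteines, and they draw leukocytes along gradients by binding G protein-coupled receptors. In macrophages, LPS is sensed by Toll-like receptor 4, whose MyD88 and TRIF adaptor arms lead to NF-kB, AP-1 and interferon regulatory factors. Many CC chemokine genes are textbook targets of these factors, and their products bring monocytes, T cells and other leukocytes to infected tissue.

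Signals below are linear and scaled to one trimmed mean per array. A signal under a floor of 35, the 40th percentile of all values, was set to that floor before a fold was taken, and where that happened on 1 of 2 arrays compared the fold is a lower bound, written "at least". With no replicate, no test of the conditions was possible, and the words higher and lower, when used as a call, mean a fold of 2 or more. Probe sets of one gene varied in their log2 difference with a pooled SD of 0.32 in the comparison of 2 h with 0 h, 0.34 in that of 12 h with 0 h and 0.31 in that of 12 h with 2 h. This is the only error the arrays hold, and the spread between cultures was not measured. Of the 9 macrophage markers checked, 8 were above the floor at each time, with Lyz2 between 6130.2 and 6308 and Cd68 between 2326 and 2546, while Mertk was under it throughout. Summed signals of the 5 T cell markers were 85.3, 64.6 and 91.1 at 0, 2 and 12 h, and none of the 5 was above the floor. Of 22 markers of B cells, neutrophils, dendritic cells, fibroblasts, endothelium and epithelium, 7, 6 and 9 were above it at 0, 2 and 12 h, with summed signals of 681, 598 and 868. At 12 h, 3 of the macrophage markers (Adgre1, Itgam and Fcgr1) and the dendritic cell marker Itgax, at 241 against 69.7 at 0 h, were at least 2-fold higher; their part in the chemokine results was not tested.

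**Figure D1:**
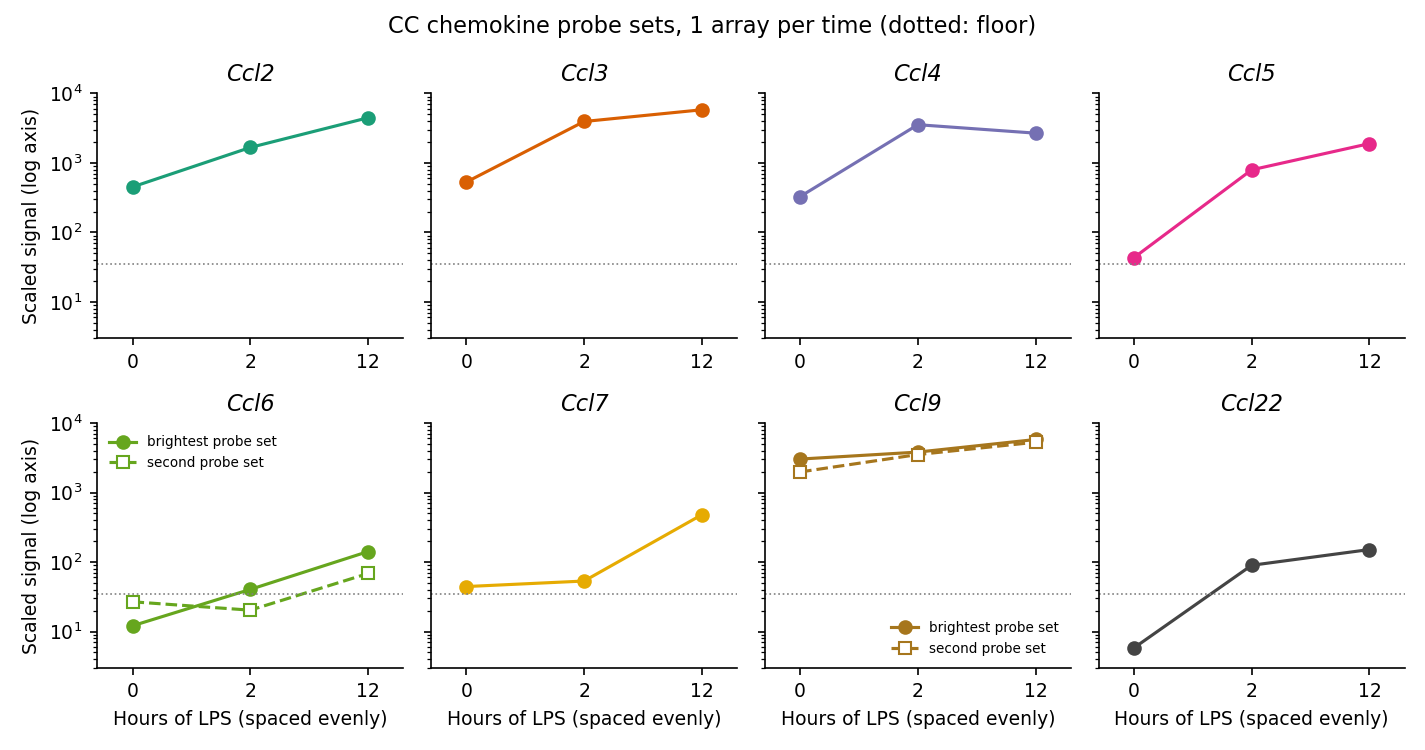
Scaled signal (log axis) of each probe set of the 8 genes at 0, 2 and 12 h of LPS, with 1 array per time, times spaced evenly and the floor dotted. On this axis the brightest probe sets of Ccl2, Ccl3, Ccl4, Ccl5 and Ccl22 climb more by 2 h than after it, Ccl22 from under the floor. Ccl7 climbs only by 12 h, and the second probe sets of Ccl6 and Ccl9 (open squares) are drawn beside the brightest.

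Ccl2 and Ccl7 encode monocyte chemoattractants that both act on the receptor CCR2. The Ccl2 probe set (1420380_at) had signals of 452, 1672 and 4479 at 0, 2 and 12 h of LPS. It was thus higher at each later time, 3.70-fold at 2 h over 0 h and 9.91-fold at 12 h over 0 h. Ccl7 (1421228_at) had signals of 44.4, 53.3 and 479.6 at the same times. Its 0 and 2 h signals lay close together, 1.20-fold apart, and only the 12 h array stood out, 10.8-fold over 0 h. That fold divides by a low signal and depends on the floor. Raising the floor to the 60th percentile gave a log2 difference of 2.50 in place of 3.43, and a pseudocount gave 2.74. The log2 difference of Ccl7 at 2 h, 0.26, was smaller than the SD between probe sets.

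Ccl3 and Ccl4 encode the macrophage inflammatory proteins 1 alpha and 1 beta, which attract monocytes, T cells and natural killer cells. Ccl3 (1419561_at) had signals of 531, 3953 and 5830.4 at 0, 2 and 12 h, which made it 7.45-fold higher at 2 h and 10.99-fold higher at 12 h than at 0 h. Ccl4 (1421578_at) had signals of 328, 3556 and 2686, with folds over 0 h of 10.8 at 2 h and 8.19 at 12 h. Ccl4 was the only member whose 12 h signal lay below its 2 h signal, by 1.32-fold. That log2 difference of -0.40 is short of 2-fold and is little more than the SD of 0.31 between probe sets.

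Ccl5, also known as RANTES, attracts T cells, monocytes and eosinophils. Its probe set (1418126_at) had signals of 43.3, 796.4 and 1900.4 at 0, 2 and 12 h. The 0 h signal was just above the floor, and both later signals were far above it, at 18.4-fold for 2 h and 43.9-fold for 12 h. These were the largest folds among the 6 members above the floor at 0 h. Because they divide by a low signal, they depend on the floor: raising the floor to the 60th percentile gave log2 differences of 3.23 in place of 4.20 at 2 h and of 4.49 in place of 5.46 at 12 h.

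Ccl6 and Ccl9 are rodent chemokines that act on the receptor CCR1. Ccl9 was high before any LPS, and its brightest probe set (1417936_at) gave 3034, 3824 and 5805 at 0, 2 and 12 h. The second one (1448898_at) gave 1979.8, 3525 and 5302. Both had the same order of times, but they fell on opposite sides of 2-fold at 12 h against 0 h, with folds of 1.91 and 2.68. At 2 h against 0 h the folds were 1.26 and 1.78. The highest value deposited for any probe set at 12 h was 7934.9, so Ccl9 and Ccl3 were read near the top of the range, and whether that compressed their folds was not tested.

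Ccl6 had low signals. Its brightest probe set (1417266_at) gave 12.1, 40.4 and 141.5 at 0, 2 and 12 h, and the second one (1420249_s_at, with a suffix that marks possible cross-hybridisation) gave 26.8, 20.3 and 68.4. Both were highest at 12 h and under the floor at 0 h, and only the brightest was above it at 2 h. By the brightest, Ccl6 was at least 1.15-fold higher at 2 h than at 0 h, a bound set by the floor: lowering it to the 20th percentile gave a log2 difference of 1.74, past 2-fold. It was at least 4.05-fold higher at 12 h than at 0 h and 3.51-fold higher at 12 h than at 2 h. By the second, both differences were at least 1.96-fold. Raising the floor to the 60th percentile ended both calls of the brightest, at a log2 difference of 0.74.

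Ccl22 encodes a chemokine that acts on CCR4 of T helper type 2 and regulatory T cells. Its probe set (1417925_at) had signals of 5.79, 89.7 and 151 at 0, 2 and 12 h. Only the 0 h array was under the floor, so the gene was at least 2.57-fold higher at 2 h and at least 4.33-fold higher at 12 h. Neither bound kept 2-fold once the floor was raised to the 60th percentile, which gave log2 differences of 0.08 and 0.84. Lowering the floor to the 20th percentile gave 3.06 and 3.81, so the size of both differences is set by the floor.

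At 2 h of LPS against 0 h, Ccl5, Ccl4, Ccl3, Ccl2 and Ccl22 were at least 2-fold higher. Ccl9 and Ccl7 were not, and Ccl6 had only a bound short of 2-fold. That is 5 of 8 genes, beside 2.09% of the 8413 genes measured in this comparison, and no member was at least 2-fold lower, beside 1.68%. The median log2 difference over the 8 genes was 1.62, and over all measured genes it was -0.10. Ranked from the highest, with bounds at their lower limit, Ccl5 stood at 10, Ccl4 at 17, Ccl3 at 30, Ccl2 at 69 and Ccl22 at 106 of 8413. Ccl9, by its brightest probe set, and Ccl7 stood at 1019 and 1310, inside the bulk of genes. The second probe set of Ccl9 was 1.78-fold over 0 h, and only 470 of all measured genes were at least 1.5-fold over it. Ccl6 stood at 1614 by its bound, a rank that the floor sets. Setting the arrays to one median moved the median log2 difference over genes with no bound from -0.10 to 0.04 and the numbers of higher and lower genes from 176 and 141 to 224 and 72, and the same 5 members were called. Quantile normalization gave 199 higher and 85 lower.

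**Figure D2:**
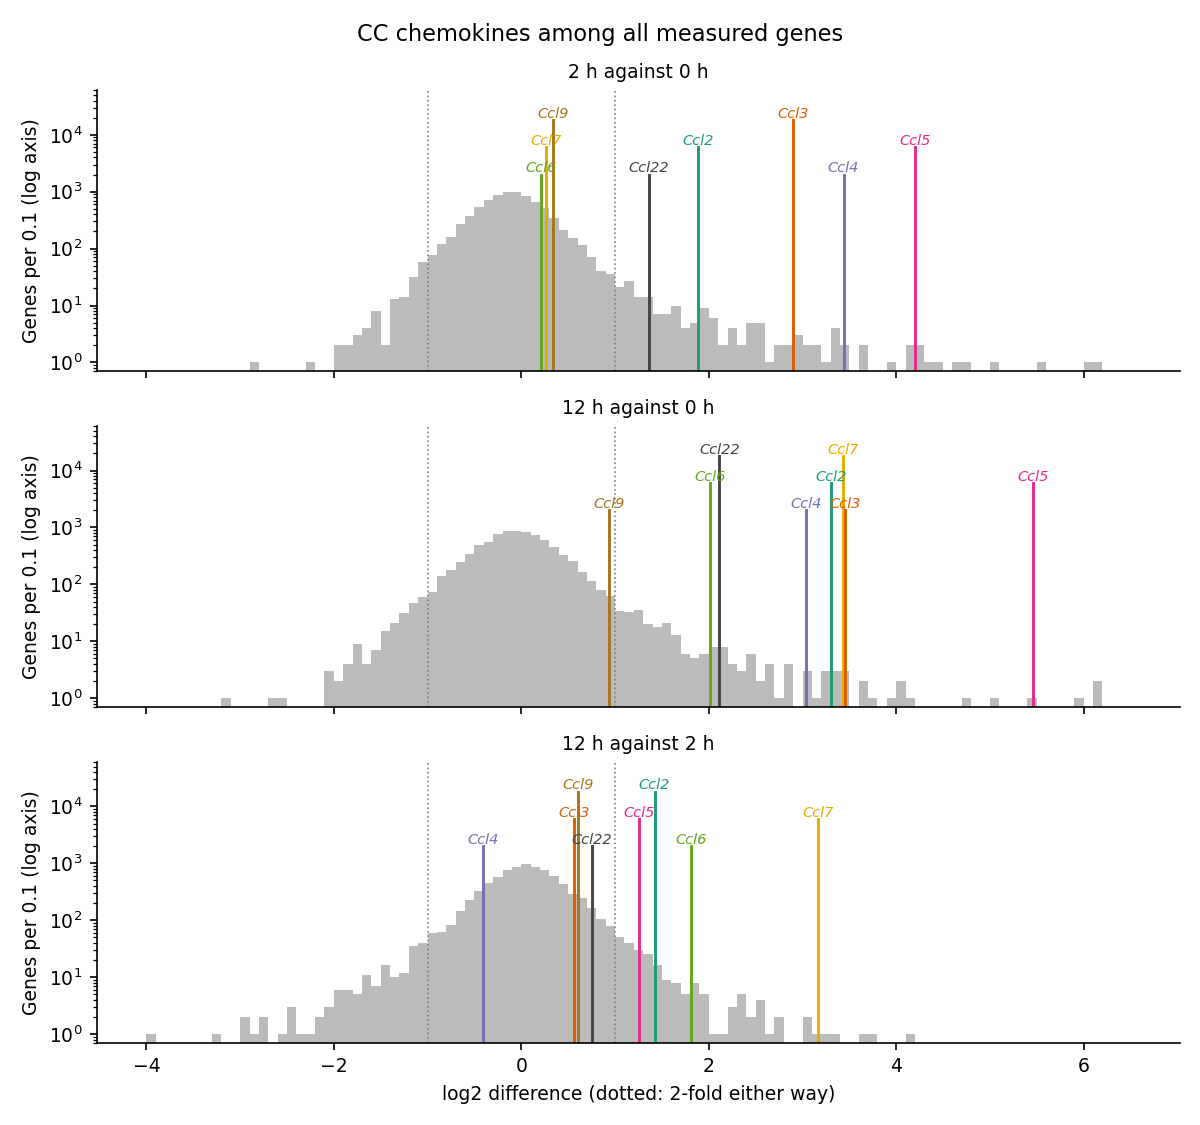
Histograms of the log2 difference of all measured genes (grey, counts on a log axis) in the 3 comparisons, with a coloured line at each of the 8 genes and dotted lines at 2-fold. Each line is drawn by the brightest probe set. At 2 h against 0 h, 3 lines sit in the bulk, that of Ccl6 at its lower bound, at 12 h against 0 h all lie to the right of it or at its edge, and at 12 h against 2 h Ccl4 alone is below 0.

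At 12 h of LPS against 0 h, 7 of the 8 genes were at least 2-fold higher, beside 3.0% of 8619 measured genes. None was at least 2-fold lower, beside 2.39%. Ccl9 was the exception by its brightest probe set, and its median over both probe sets, a log2 difference of 1.18, was past 2-fold. The median over the 8 genes was 3.17, beside -0.05 over all measured genes. Ccl5 stood at rank 4 of 8619, Ccl3 at 14, Ccl7 at 16, Ccl2 at 19 and Ccl4 at 26. Ccl22 and Ccl6, both bounds, stood at 58 and 63, and Ccl9 at 291. The log2 differences of Ccl3, Ccl7, Ccl2 and Ccl4 (3.46, 3.43, 3.31 and 3.03) lay close together, although at 2 h those of the same genes had run between 0.26 and 3.44. Both comparisons with 0 h use the same 0 h array.

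At 12 h against 2 h, Ccl7, Ccl6, Ccl2 and Ccl5 were at least 2-fold higher, with folds of 9.003, 3.51, 2.68 and 2.39. That is 4 of 8 genes, beside 2.65% of 8457 measured genes, and none was at least 2-fold lower, beside 1.97%. Ccl7 stood at rank 6 of 8457, Ccl6 at 39, Ccl2 at 77 and Ccl5 at 115. Ccl22 at 1.69-fold, Ccl9 at 1.52-fold and Ccl3 at 1.47-fold were higher by less than 2-fold. The median of the 8 genes was 1.004, beside 0.05 for all measured genes. Over the 8 alternatives with a value it ran from 0.75 to 1.004 and was short of 2-fold in 4 of them. With the arrays set to one median, the numbers of all higher and lower genes were 178 and 225 in place of 224 and 167, and the members called higher still numbered 4.

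**Figure D3:**
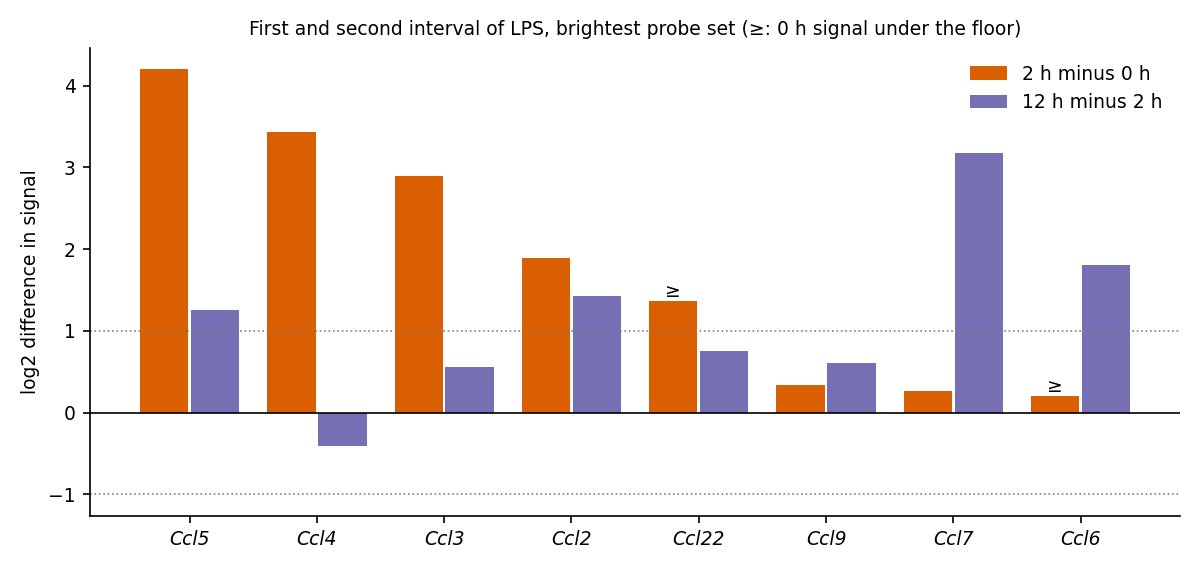
Log2 difference of each gene over the first interval (2 h minus 0 h) and the second (12 h minus 2 h), by the brightest probe set, with dotted lines at 2-fold and a sign where the 0 h signal was under the floor. Ccl5, Ccl4, Ccl3, Ccl2 and Ccl22 have their larger bar first, and Ccl9, Ccl7 and Ccl6 second, although the first bar of Ccl6 is a bound and was 1.74 with a lower floor. The second probe set of Ccl9, not drawn, had the larger difference first, at 0.83 beside 0.59. Ccl4 has a bar below 0 in the second interval.

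The 8 genes differed in how much of their 12 h gain was already present at 2 h. As a share of the difference in signal between 12 h and 0 h, without the floor, 137% was present at 2 h for Ccl4, 64.6% for Ccl3 and 57.7% for Ccl22. The share was 40.6% for Ccl5 and 30.3% for Ccl2. It was 28.5% and 46.5% by the 2 probe sets of Ccl9, 21.9% for the brightest probe set of Ccl6 and 2.05% for Ccl7. The probe sets of Ccl9 were further apart than Ccl5 was from Ccl2, so neighbours in this order cannot be told apart. Ccl4 held the high end, and by the brightest probe sets Ccl7 held the low end. The second probe set of Ccl6 gave -15.6%, below Ccl7, from 2 h and 0 h signals that were both under the floor. These are shares of linear signal, although a share of the log2 difference had been planned. On the log2 scale, Ccl5 had a difference from 0 h of 4.20 at 2 h beside 5.46 at 12 h. Ccl2 had 1.89 beside 3.31, so by that scale most of both was present at 2 h.

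The genes' places on mouse chromosome 11 run in 2 groups, by the RefSeq gene table. Ccl2, Ccl7, Ccl11, Ccl12, Ccl8 and Ccl1 follow each other with no other protein-coding gene between them. After 25 other protein-coding genes come Ccl5, Ccl9, Ccl6, Ccl3 and Ccl4, again with none between. In the first group, Ccl2 and Ccl7 were the only genes called at 12 h against 0 h. Ccl12, a further CCR2 ligand in mice, had signals of 5.89, 3.70 and 55.9 at 0, 2 and 12 h, above the floor on the 12 h array alone and at least 1.60-fold over 0 h. Ccl8 stayed between 68.0 and 82.6 over the 3 arrays. Ccl11, an eosinophil chemoattractant, and Ccl1 were under the floor at each time. In the second group all 5 genes were higher at 12 h than at 0 h, and Ccl9 alone was short of 2-fold. On chromosome 8, Ccl17, which shares the receptor CCR4 with Ccl22 and lies 1 protein-coding gene away from it, had signals of 21.0, 35.5 and 30.2 and was above the floor at 2 h only.

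**Figure D4:**
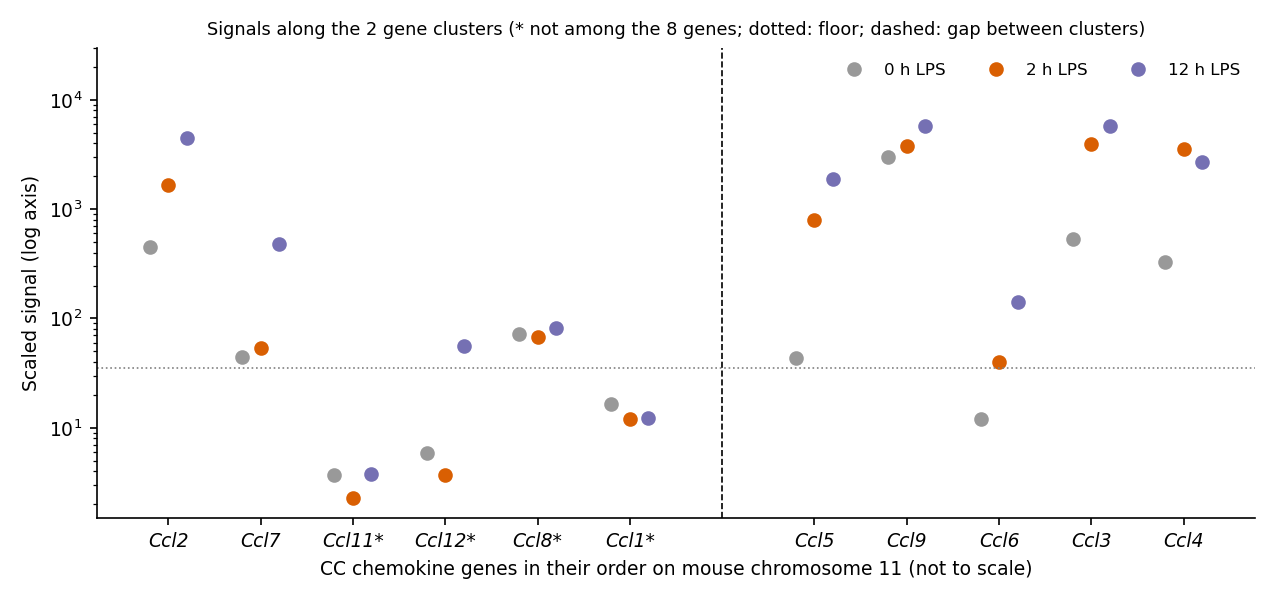
Scaled signal (log axis) at 0, 2 and 12 h of LPS for CC chemokine genes in their order on mouse chromosome 11, not to scale, with the floor dotted and a dashed line between the groups. Signals of different genes come from different probe sets, so only the times of 1 gene can be compared; Ccl2, Ccl7 and the 5 genes on the right are higher at 12 h than at 0 h, with Ccl4 highest at 2 h, while the points of Ccl8, Ccl11 and Ccl1 (stars mark genes outside the 8) stay close together or under the floor.

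The lists that follow were described by their counts and medians, to be read beside those of all genes above. Several of their medians were smaller than the shift that median scaling gave all genes, so the sign of a median near 0 is not read. Of 16 other CC ligand genes listed for comparison, 10 had a probe set of their own, and none was called at 2-fold in any comparison. Only 2 of them, Ccl8 and Ccl17, were measured at 2 h against 0 h, and Ccl8 and Ccl12 at 12 h against 0 h. Ccl12 and Ccl17 had only bounds set by the floor, so they cannot be said to be short of 2-fold. Ccl20, Ccl24, Ccl25, Ccl27a and Ccl28 were under the floor on all 3 arrays.

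Among 14 CC chemokine receptor and decoy genes, 6 were measured at 2 h against 0 h and 1 was at least 2-fold higher. This was Ccrl2, an atypical receptor that binds chemerin, with signals of 35.8, 327 and 129 at 0, 2 and 12 h. It was 9.14-fold higher at 2 h and 3.60-fold higher at 12 h than at 0 h, and 2.54-fold lower at 12 h than at 2 h. At 12 h against 0 h, 2 of 9 measured genes were higher, Ccrl2 and Ccr1. Ccr1, the receptor for Ccl3, Ccl5, Ccl6 and Ccl9, had signals of 32.8, 23.3 and 299.1, above the floor at 12 h only and at least 8.56-fold over either earlier time. Its second probe set read 12.2, 5.10 and 15.2, under the floor on every array, so the 2 probe sets of Ccr1 disagree. The 3 probe sets of Ccr2, the receptor for Ccl2 and Ccl7, read 21.0 to 26.3 at 0 h, 17.8 to 22.2 at 2 h and 37.7 to 44.2 at 12 h. By the brightest, Ccr2 was at least 1.26-fold higher at 12 h than at 0 h. Ccr4, the receptor for Ccl22, had signals of 46.1, 21.1 and 16.2 and was at least 1.32-fold lower at both later times than at 0 h. The median log2 difference of the receptor list was -0.35 at 2 h and 0.13 at 12 h against 0 h.

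In the list of the LPS receptor and its adaptor arms, 1 of 15 measured genes was at least 2-fold higher and 1 lower at 2 h against 0 h. Ikbke, a kinase that phosphorylates interferon regulatory factors, had signals of 86.4, 485 and 346 at 0, 2 and 12 h, 5.62-fold higher at 2 h and 4.0-fold higher at 12 h than at 0 h. Tlr4 had signals of 251, 82.2 and 175, and was 3.06-fold lower at 2 h. Its second probe set had the same order of times, at 196, 41.3 and 118. The median of the list was -0.01 at 2 h and 0.18 at 12 h against 0 h. The counts and medians rest on the brightest probe set of each gene. Irak1 was not called by its brightest, at 139, 122 and 109 at 0, 2 and 12 h, but another read 118, 56.0 and 24.2. Its other probe sets read 115, 62.4 and 50.7, and 140, 89.6 and 103.

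NF-kB and AP-1 genes had their highest count of calls at 2 h, when 10 of 18 were at least 2-fold higher and 2 were lower than at 0 h, with a median of 1.32. At 12 h against 0 h, 5 were higher and none was lower, with a median of 0.61, and at 12 h against 2 h, 1 was higher and 6 were lower, with a median of -0.58. Nfkbiz, an atypical IkB protein, had signals of 42.7, 1458 and 406 at 0, 2 and 12 h. Rel, an NF-kB subunit, had 35.3, 272 and 87.3, and Tnfaip3, which encodes the NF-kB inhibitor A20, had 60.2, 409 and 68.1. For these 3 genes the 2 h array was the highest, as it was for Ccl4 among the chemokines. Cebpd, a C/EBP transcription factor, was 5.78-fold higher at 2 h. Jun and Fos, subunits of AP-1, were 2.84-fold and 3.20-fold lower at 2 h than at 0 h. The second probe set of Jun was short of 2-fold, at 52.8 at 2 h against 85.1 at 0 h.

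Of 12 interferon arm genes, none was at least 2-fold apart at 2 h against 0 h, and Irf7 and Stat2 were higher at 12 h. Irf7, a transcription factor of the interferon response, had signals of 204, 230.3 and 1268 at 0, 2 and 12 h, 6.20-fold higher at 12 h than at 0 h. Stat2, which carries the interferon signal to the nucleus, had 62.5, 63.7 and 190.4. Both stood out on the 12 h array alone, as Ccl7 did. The list's median was 0.02 at 2 h and 0.08 at 12 h against 0 h.

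The list of genes for mRNA decay and for proteases that can cleave chemokines had 2 of 9 measured genes higher and 1 lower at 2 h against 0 h, and 5 of 10 higher and none lower at 12 h. Its medians were 0.33 and 0.68. Zfp36 encodes tristetraprolin, which binds AU-rich elements and speeds the decay of cytokine mRNAs. It had signals of 256, 1008 and 759 at 0, 2 and 12 h. Zc3h12a, the gene of the endonuclease Regnase-1, had 20.6, 188 and 102, at least 5.39-fold higher at 2 h. Zfp36l2 was 2.04-fold lower at 2 h by its brightest probe set, whereas a second was short of 2-fold, at 62.7 at 2 h against 95.1 at 0 h. The gelatinase gene Mmp9 was 6.51-fold higher and the membrane-type metalloproteinase gene Mmp14 at least 4.56-fold higher at 12 h than at 0 h. For comparison, Tnf, the tumour necrosis factor gene, had signals of 184, 3346 and 1343, and Actb, the beta actin gene, 5161, 5824 and 5904 by its brightest probe set. The second probe set of Actb read 329, 186 and 541, so the 2 disagree.

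**Figure D5:**
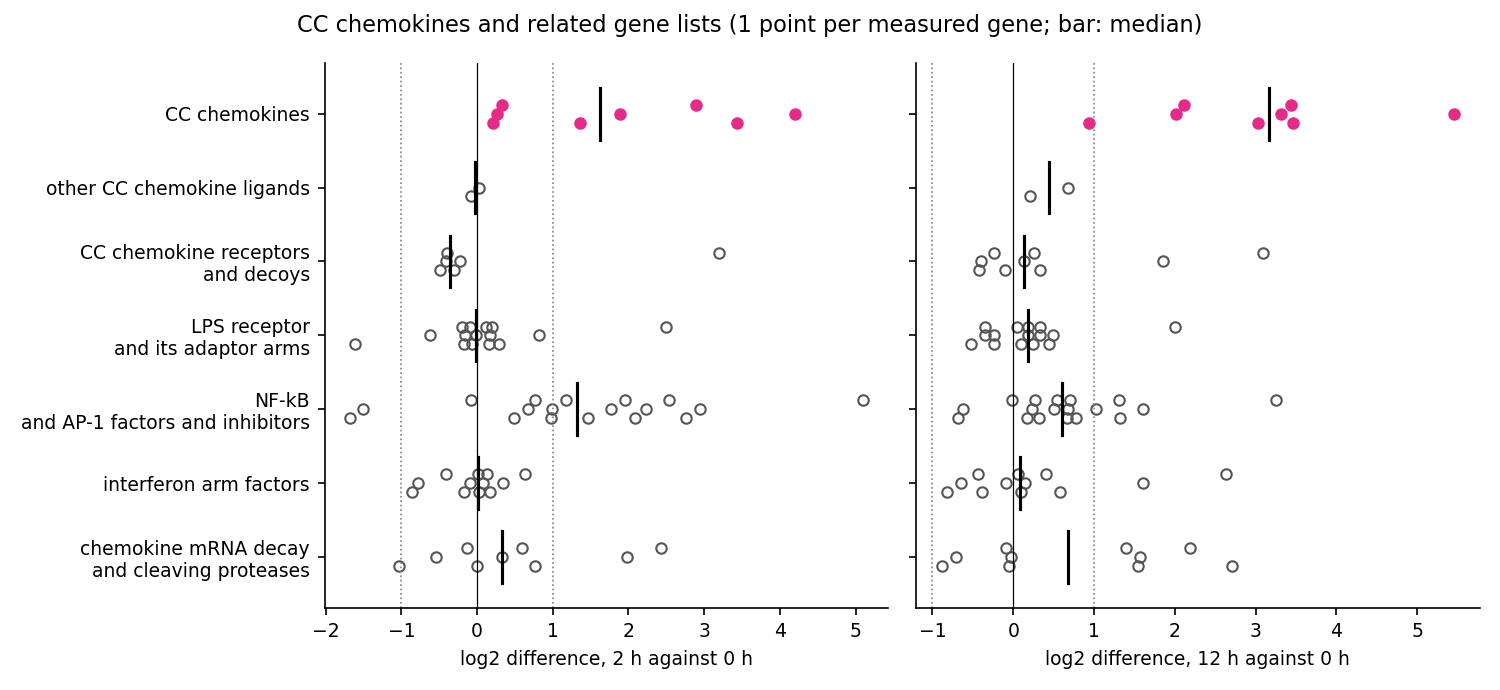
Log2 difference of each measured gene of the 8 CC chemokines (filled) and of 6 related lists (open), at 2 h and at 12 h against 0 h, with lower bounds drawn at their limit, bars at list medians and dotted lines at 2-fold. The chemokine median lies at 1.62 in the left panel and 3.17 in the right, while that of the NF-kB and AP-1 list lies at 1.32 and 0.61.

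For the 6 members above the floor on all 3 arrays, the genes with the closest pair of log2 differences (2 h minus 0 h and 12 h minus 0 h) were sought by Euclidean distance among 7320 other such genes. The distance rests on 3 arrays and both differences share the 0 h array, so it is a description only. Ccl4 lay closest to Myc, a growth-promoting transcription factor, at a distance of 0.14, then to Ptgs2, the inducible prostaglandin synthase, at 0.24 and to the early-response gene Ier3 at 0.36. The same 3 genes were closest to Ccl3, at 0.38 for Ier3, 0.47 for Ptgs2 and 0.64 for Myc. Ccl2 lay closest to Tnfrsf1b, a tumour necrosis factor receptor, at 0.30, to the peptide transporter gene Slc15a3 at 0.43 and to the cystine transporter gene Slc7a11 at 0.51. Ccl7 lay closest to Procr, the endothelial protein C receptor, at 0.36, then to the interferon-inducible gene Ifi202b at 0.56 and to Pdpn, which encodes podoplanin, at 0.58. Procr had signals of 65.9, 86.1 and 564 at 0, 2 and 12 h, likewise high on the 12 h array alone. Ccl5 had no close gene: Il1b at 1.43, Cxcl2 at 1.95 and Saa3 at 2.25 were the nearest. By its brightest probe set, Ccl9 lay in the dense part of the distribution, where Dhrs11, Tmem63b and Pi4k2b were each within 0.05.

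Promoter sequence was held for 4 of the 8 genes, Ccl3, Ccl6, Ccl9 and Ccl22, in RefSeq on build GRCm38.p6. The 250 bases before the annotated start are shown because Ccl3 and Ccl22 were called at 2 h, Ccl9 was not and Ccl6 had a bound short of 2-fold. They run 5′ to 3′ on the gene's strand, and capitals mark matches to any of the motifs searched. The Ccl3 window is chr11:83649379-83649628 on the minus strand, that of Ccl22 is chr8:94745434-94745683 on the plus strand, that of Ccl6 is chr11:83593088-83593337 on the minus strand and that of Ccl9 is chr11:83578637-83578886 on the minus strand.
Ccl3: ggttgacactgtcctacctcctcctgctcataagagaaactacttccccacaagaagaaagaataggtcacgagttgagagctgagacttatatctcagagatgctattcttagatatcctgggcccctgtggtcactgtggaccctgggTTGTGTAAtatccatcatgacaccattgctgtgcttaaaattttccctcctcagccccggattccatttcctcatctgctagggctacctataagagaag
Ccl22: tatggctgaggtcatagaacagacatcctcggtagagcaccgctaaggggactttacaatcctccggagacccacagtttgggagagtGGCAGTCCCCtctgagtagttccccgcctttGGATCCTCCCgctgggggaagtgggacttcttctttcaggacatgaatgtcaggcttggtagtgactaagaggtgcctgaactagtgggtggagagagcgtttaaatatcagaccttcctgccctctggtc
Ccl6: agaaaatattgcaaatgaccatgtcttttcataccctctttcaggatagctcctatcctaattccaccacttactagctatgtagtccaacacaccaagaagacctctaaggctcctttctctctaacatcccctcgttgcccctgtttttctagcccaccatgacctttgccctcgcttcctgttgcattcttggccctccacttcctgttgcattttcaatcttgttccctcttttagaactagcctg
Ccl9: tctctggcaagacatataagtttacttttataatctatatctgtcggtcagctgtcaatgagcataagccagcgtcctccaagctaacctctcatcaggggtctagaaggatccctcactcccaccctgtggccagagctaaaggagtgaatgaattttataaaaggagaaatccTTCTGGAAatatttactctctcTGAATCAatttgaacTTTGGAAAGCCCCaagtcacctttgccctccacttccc
The motifs were GGG and CC with any 5 bases between them for NF-kB, a narrower form of it with GGGA and TCC around any 3 bases, TGANTCA for AP-1, GAAA repeated after any 2 bases for the interferon-stimulated response element, and TTNNGNAA for C/EBP, each on both strands. A match to the narrow NF-kB form is also a match to the wide one. Ccl22 held 2 matches to the wide form, at -162 to -153 and -131 to -122 from the start, and the second of these was also a narrow match. Ccl9 held 1 wide match, at -35 to -26, an AP-1 match at -53 to -47 and 2 C/EBP matches, of which the one at -38 to -31 overlaps the wide NF-kB match. Ccl3 held 1 C/EBP match, at -100 to -93, and Ccl6 held no match to any of these letters. Of 32851 promoter windows of the same length, 45.8% held the wide NF-kB form, 3.86% the narrow form, 6.75% the AP-1 form, 2.98% the interferon-stimulated form and 36.8% the C/EBP form. The wide NF-kB and C/EBP letters are thus common in any promoter, and a match is a description of the letters in the window and not of a bound site.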

How the data were processed

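The table that the authors deposited holds intensity on a linear scale for each probe set, without detection calls, and its 2% trimmed mean was 150.05 on each of the 3 arrays. Targets were made by a modified Affymetrix procedure, per the labels' protocols. Neither the signal algorithm nor the normalization is given in the sources used here. Of 22690 probe sets, 64 were controls, 20380 had 1 gene in the platform annotation, 691 had several and 1555 were not listed; 20351 were matched to the RefSeq gene table of GRCm38.p6. Arrays were rescaled to one 2% trimmed mean over non-control probe sets. The brightest probe set by mean log2 intensity stood for a gene. With 1 array per time there was no test, and the number of arrays limits the precision.

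The members, gene lists, floor and alternatives were chosen with earlier results of these data known. Named genes were the 8 members and the 3 nearest genes of each member above the floor on all 3 arrays. Up to 4 list genes per direction past 2-fold were also named, as were Tlr4, Actb and Tnf. Gapdh was not analysed here. Other ligand genes, receptors of members and Irak1, which missed 2-fold by their brightest probe sets, are named too, chosen after their values were seen. The counting was tested on simulated data. Alternatives were 3 scalings, 2 floors, a pseudocount of 32, 2 ways of choosing probe sets and folds of 1.5 and 3. Python 3.11.15, numpy 2.4.6 and pandas 2.3.3 were used.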

Additional observations from a re-analysis of the deposited data

How the results depend on the processing

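Over 8 settings with values for single genes, 168 of 189 log2 differences of the 8 genes moved by less than the SD between probe sets, 21 moved by more, none at least 2-fold changed direction and 6 changed side of 2-fold. Many of the 168 could not move, or hardly. Probe sets without a suffix gave every member its reported value, and the median over probe sets could change only Ccl6 and Ccl9. The deposited values differed from the rescaled ones by factors of 0.999 to 1.002 alone. The count of 168 is therefore no measure of how stable the values are. The median over the 8 genes at 2 h against 0 h was 2.39 in place of 1.62 under a floor at the 20th percentile. Under one at the 60th it was also 2.39, but without Ccl6 and Ccl7, which had no value there. At 12 h against 0 h the median over the 8 genes was 2.77 under the floor at the 60th percentile and 2.83 with a pseudocount, in place of 3.17. With a fold of 3, 2 genes were higher at 12 h against 2 h, in place of 4. Ccl6 was past 2-fold at 2 h with the floor at the 20th percentile (log2 difference 1.74) and short of it at 12 h with the floor at the 60th (0.74, against either earlier time). Over all alternatives, the members called higher numbered 4 to 6 at 2 h and 5 to 8 at 12 h against 0 h. Counts over all genes ran from 87 to 470 higher and 13 to 810 lower at 2 h against 0 h (176 and 141 as reported), from 100 to 713 and 27 to 891 at 12 h against 0 h (259 and 206), and from 55 to 857 and 48 to 545 at 12 h against 2 h (224 and 167). The causes were not tested beyond how each setting is built. No paired analysis was possible because each time has 1 array. Signals near the floor limit Ccl6, Ccl22, and the 0 h values of Ccl5 and Ccl7.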

Other observations

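Probe sets annotated to several genes were left out of the gene values above. Of these, 4 name a CC chemokine among their genes. The one for Ccl21 genes read 5.49, 3.997 and 4.81 at 0, 2 and 12 h of LPS, and the one for Ccl19 and its near copies read 7.09, 5.90 and 6.91. The 2 for Ccl27 genes read 21.5, 5.20 and 4.61, and 5.69, 2.00 and 1.90. All lay under the floor on each array.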
